A study of Rattus norvegicus with 24 samples.

Results

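Chemokines and their receptors were followed in the blood of rats given lipopolysaccharide (LPS) and fed oat beta-glucan. The members were chosen by gene name alone: every probe of the array whose gene symbol began with Ccl, Cxcl, Xcl, Ccr, Cxcr or Xcr and a digit, or with Cx3cl or Cx3cr. The rule found 54 genes of the 25885 gene names on the array, 34 ligands and 20 receptors, with 60 probes among 30367. Each gene was read from the probe with the brightest Cy3 signal, and 6 genes had more than 1 probe. The array used the names Cxcl5 and Cxcr7 for genes that RefSeq now lists as Cxcl6 and Ackr3.

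Chemokines are small secreted proteins that draw white blood cells along a gradient, and their receptors are G protein-coupled receptors on the moving cell. Inflammatory chemokines are made on demand, often after a bacterial product such as LPS is sensed, while homeostatic chemokines guide lymphocytes through lymphoid organs and mucosa. In blood, receptor transcripts are carried mainly by neutrophils, monocytes and lymphocytes, so the set of receptors that can be measured reflects the cells present.

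Blood RNA of single male Sprague Dawley rats, obtained at 8 weeks of age, was hybridised on 24 two-colour arrays, 4 in each of 6 groups. All rats then ate a semi-synthetic diet for 6 weeks, were injected repeatedly in the tail vein, fasted, and were bled by cardiac puncture at the end of feeding. C-G0, C-G1 and C-G2 received saline, and LPS-G0, LPS-G1 and LPS-G2 received LPS from Escherichia coli at 10 mg/kg, a model of enteritis. G0 was the plain diet, and G1 and G2 held 1% (w/w) oat beta-glucan, of high molecular weight in G1 and low in G2. Each array set blood RNA of 1 rat against pooled blood RNA of the experiment. Values below are log2 ratios of Cy3 over Cy5, with Cy3 taken as the rat, and 0 is the level of the pool. The study's methods name the dyes the other way round, and if they hold, every sign below is turned, and the counts above background, the filter and the bounds, all read in Cy3, describe the pool. In Cy5, 23 members were well above background on all 24 arrays, against 11 in Cy3. Levels of different genes are not comparable on this scale.

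A probe was counted as well above background when the scanner software marked its Cy3 signal so. Between 7786 and 15385 probes per array met this, and 12 to 29 of the 54 members did, with a median of 20.5. The arrays lay on 3 slides of 8, each with all 6 groups, and the median number of members above background was 21, 18 and 24.5 on slides 1, 2 and 3. The sample labels of LPS-G0 replicates 3 and 4 conflict: the title names LPS and another field names them control. They were used as LPS-G0, and the differences of the members described are also given without them. C-G0 replicate 1 and C-G1 replicate 2 stood apart, with a median absolute log2 ratio of 0.49 each, where the other arrays lay between 0.16 and 0.34. The lowest correlation between 2 arrays over the tested probes was -0.54. Of the markers looked for on the arrays, tests covered 6 of 9 for B cells, 8 of 10 for T cells, 8 of 10 for cytotoxic T and NK cells, 6 of 10 for neutrophils, 5 of 9 for monocytes, 8 of 8 for red cell precursors, 8 of 9 for platelets and 2 of 7 for eosinophils and basophils. Cd28, Ltf, Cd163, Fcer1a, Ms4a2 and Il5ra were never above background.

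The probes that carry the main results are shown by their first 30 of 60 bases, with the rn4 position that the array design gives, so that a reader can place what was measured. No rn4 gene model was used here, so exon and coding positions are not assigned. The first 3 belong to Ccr1l1, Ccl20 and Cxcr5, whose values moved together.
Ccr1l1, chr8:128728435-128728464, minus strand: tcctcttgaccccctattatttggctgcct
Ccl20, chr9:82443354-82443383, plus strand: CGCTTAGTAAAAGGTTCAATATTatgttta
Cxcr5, chr8:47485178-47485207, minus strand: tctctctgagtcagagaacgctacttctct
The next belong to genes that followed a blood cell type.
Ccl6, chr10:71660264-71660293, minus strand: aatcaatttttgccctaagccatacatatg
Cxcr2, chr9:73477254-73477283, plus strand: catggctcattaccagagactgtgatattt
Ccl5, chr10:71605884-71605913, minus strand: tatcataccatagagattataactgtgtcc
Ccr6, chr1:47115533-47115562, minus strand: gccccgaaagcctttgtgaaacttgctatt
Ccl20 had another probe that began 7 bases earlier and shared 53 of its 60 bases with the probe above. The capitals in both mark the shared bases within the part shown.
Ccl20, other probe, chr9:82443347-82443376, plus strand: tgaagggCGCTTAGTAAAAGGTTCAATATT
The probe used for Ccl20 was well above background on 22 arrays and the other on 0, so the values of Ccl20 rest on 1 probe. The reason for the gap between 2 such close probes was not tested.

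Of the 54 members, 11 were well above background on all 24 arrays and 14 on none. To be tested, a gene's probe had to be above background throughout at least 1 group of 4. This held for 17 members when all 24 arrays were used and for 16 in the 16 arrays of C-G0 and the LPS groups. The 8 ligands tested were Ccl3 and Ccl4 (inflammatory ligands of macrophages and T cells), Ccl5 (made by T and NK cells), Ccl6 (a rodent CC ligand of myeloid cells), Ccl20 (the ligand of Ccr6), Ccl24 (an eosinophil attractant acting on Ccr3), Cxcl16 (a membrane-bound ligand of Cxcr6) and Xcl1 (the ligand of Xcr1). There were 9 receptors, and those described here are Ccr1l1 (a rodent gene related to Ccr1), Ccr2 (of monocytes), Ccr6, Ccr9 (of gut-homing lymphocytes), Cx3cr1 (of monocytes and NK cells), Cxcr2 (of neutrophils), Cxcr4 (the receptor of Cxcl12) and Cxcr5 (of B cells and follicular T cells). Xcl1 entered only the fit of all 24 arrays, because C-G1 was the single group with all 4 arrays above background.

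**Figure D1:**
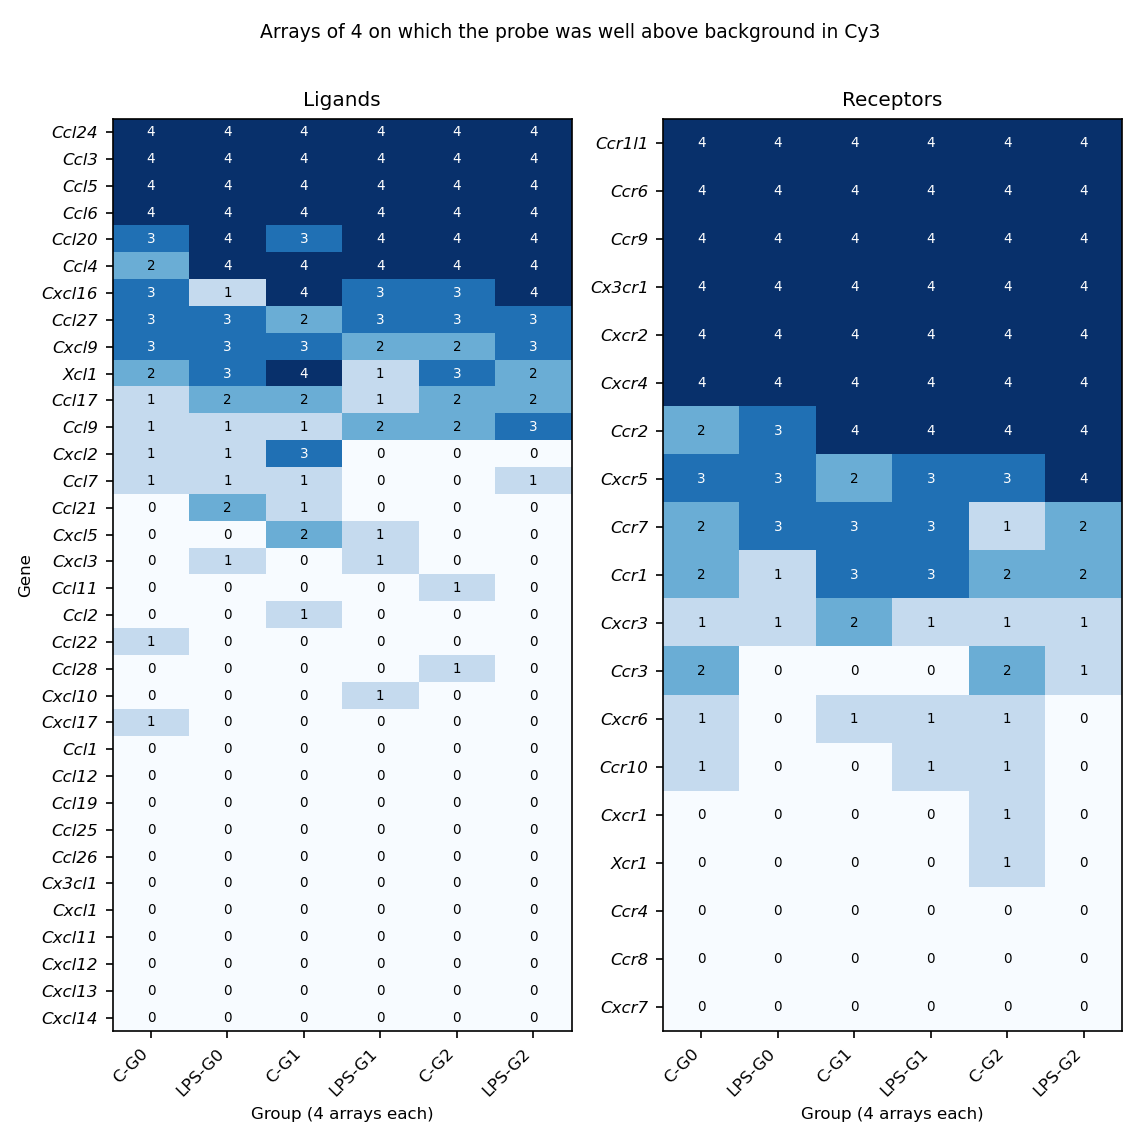
Number of arrays, of 4 in each group (columns), on which each chemokine (left) or receptor (right) was well above background in Cy3, with genes ordered by their total. At the foot of the panels, 14 genes show 0 in every group.

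Tested genes were 9 of the 20 receptors and 8 of the 34 ligands. Of the 9 receptors tested, Cxcr4, Cxcr5, Ccr9, Cx3cr1 and Ccr2 had a main ligand that was above background on at most 1 array. Cxcl12, Cxcl13, Ccl25 (the ligand of Ccr9) and Cx3cl1 were above background on 0 arrays, and Ccl2 (the main ligand of Ccr2) on 1. Cxcr2 has several CXC ligands and is not counted here: Cxcl1 was above background on 0 arrays and Cxcl2 on 5. Ppbp, a chemokine that the name rule did not match, was bright enough to be tested. The reverse held for 3 ligands: Ccl24 was above background on 24 arrays and its receptor Ccr3 on 5, Cxcl16 on 18 and Cxcr6 on 4, Xcl1 on 15 and Xcr1 on 1. These gaps were read in Cy3: in Cy5 Cx3cl1 was above background on 13 arrays, Ccr3 on 22, Cxcr6 on 14 and Xcr1 on 16. For Ccl20 and Ccr6, ligand and receptor were both tested.

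The CXC ligands that attract neutrophils were rarely above background in Cy3 with or without LPS. Cxcl1 was above background on 0 arrays, Cxcl2 on 5, Cxcl3 on 2 and Cxcl5 on 3. In Cy5 they were above background on 0, 3, 10 and 19 arrays. Cxcl2 was above background on 3 of 4 arrays of C-G1 and on 0 of 4 in LPS-G1, C-G2 and LPS-G2. Its mean Cy3 signal in C-G1 was at least 1.72-fold higher than in LPS-G1 and at least 1.68-fold higher than in C-G2, with the dimmest detected signal of the other arrays as the floor. These bounds carry no test. Cxcl2 had log2 ratios of 2.71, -0.26, 3.15 and -0.46 in C-G1, where replicates 1 to 3 were above background. Single rats of other groups lay high too: 2.59 in C-G0 replicate 2, 4.27 in LPS-G0 replicate 3 and 3.15 in LPS-G2 replicate 2. The LPS-G2 array was not counted as above background. Of the interferon-inducible ligands, Cxcl9 was above background on 16 arrays, Cxcl10 on 1 and Cxcl11 on 0, and in Cy5 on 22, 16 and 8.

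Most other members were seen on some arrays or none in Cy3. Ccl27 (a skin homing ligand) was above background on 17 arrays, Ccr7 (a lymph node homing receptor) on 14, Ccr1 on 13, Ccl17 and Ccl9 on 10 each, Cxcr3 (of effector T cells) on 7 and Ccl7 on 4. Ccl21 and Ccr10 were above background on 3 arrays each. Ccl11, Ccl22, Ccl28, Cxcl17 and Cxcr1 were above background on 1 array each, and Ccl1, Ccl12, Ccl19, Ccl26, Cxcl14, Ccr4, Ccr8 and Cxcr7 on 0. Many of these were seen more often in Cy5. There Ccl27, Ccr7, Ccr1, Ccl17, Ccl9 and Cxcr3 were above background on 24 arrays each and Ccl22 on 23. Ccr10 and Cxcl17 were so on 21, Cxcl14 on 19, Ccl21 on 11, Ccl7, Ccl12 and Ccl28 on 8, and the rest on at most 4. Ccr3, the eosinophil receptor, was above background on 2 of 4 arrays of C-G0 and 0 of 4 of LPS-G0. Its mean Cy3 signal was at least 1.43-fold lower in LPS-G0, a bound that carries no test. The log2 ratios of Ccr3 were 1.22, 0.65, -0.66 and -0.35 in C-G0 and -1.29, -0.59, -0.85 and -0.54 in LPS-G0. These groups overlapped, and both C-G0 arrays above background lay on slide 1. A lower level and a weaker hybridisation cannot be told apart by such counts, and slide 3 had the highest median number of probes above background, 13532, against 11202 on slide 1.

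The first comparison asked what LPS changed on the plain diet. No member passed the test between LPS-G0 and C-G0, among 16 tested, where 0.0097% of the 10313 probes had an adjusted p under 0.05. At an unadjusted p under 0.05 there were 3 members, Ccr1l1 and Ccl5 higher and Cxcr2 lower in LPS-G0, where 15.2% of all probes were, 10.7% higher and 4.44% lower. Over the 16 members 7 had a higher mean in LPS-G0 and 9 a lower one, where 53.5% of all probes were higher, with a median difference of -0.12 against 0.03 over all probes tested. In whole blood, fewer cells of a type and less RNA per cell cannot be told apart.

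Ccr1l1 had log2 ratios of 0.03, -0.97, -0.65 and -0.37 in C-G0 replicates 1 to 4. In LPS-G0 they were 0.23, 0.11, 0.14 and 0.49. Every LPS-G0 rat lay above every C-G0 rat, although C-G0 replicate 1 came within reach of the LPS-G0 rats. The difference was 0.73 ± 0.18 (SE, n = 4 and 4) with an adjusted p of 0.218 in limma, and the exact permutation test gave 0.0286, the smallest two-sided p that 4 against 4 allows. The difference was 0.64, 0.79 and 0.85 within slides 1, 2 and 3. Without C-G0 replicate 1 it was 0.90 and passed the test, with an adjusted p of 0.00686. Over the arrays left out in turn the adjusted p lay between 0.00686 and 0.547, and with array weights it was 0.00995. The number of all probes called moved too. It was 0 to 1140 with 1 array left out and 0 to 1106 over the other settings, against 1. Without LPS-G0 replicates 3 and 4 the difference was 0.66.

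Ccl5, a ligand that attracts T cells and monocytes, had log2 ratios of -0.95, -0.15, -0.35 and -0.26 in C-G0. In LPS-G0 they were 0.36, 0.24, 0.08 and -0.13. The groups did not overlap, and the closest pair of rats differed little. The difference was 0.57 ± 0.17 (SE, n = 4 and 4), with an adjusted p of 0.218. It was 0.85, 0.43 and 0.13 within the slides, 0.39 without C-G0 replicate 1 and 0.73 without LPS-G0 replicates 3 and 4. With array weights it was 0.49 and passed the test, with an adjusted p of 0.0472. Over the settings other than single arrays left out, 0 to 1106 of all probes were called, against 1. Groups that did not overlap were seen for 2 members, Ccr1l1 and Ccl5, and for 5.04% of all probes. The cytotoxic T and NK cell markers, a source of Ccl5, lay higher as well: 7 of the 8 tested had a higher mean in LPS-G0, 0 passed the test, and their mean ranged from -1.12 to 0.10 in C-G0 and from -0.04 to 0.53 in LPS-G0. The part of these cells in the difference of Ccl5 was not tested.

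Cxcr2, through which neutrophils follow CXC chemokines, had log2 ratios of 0.61, 0.11, 0.58 and 0.29 in C-G0. They were -0.49, 0.27, -0.49 and -0.10 in LPS-G0. One LPS-G0 rat lay inside the range of C-G0. The difference was -0.60 ± 0.24 (SE, n = 4 and 4), with an adjusted p of 0.261, -0.51 without LPS-G0 replicates 3 and 4, and -0.39 with another background correction (normexp and loess). All 6 neutrophil markers tested also had a lower mean in LPS-G0, 0 of them past the test, with a mean of -0.25 to 0.10 in C-G0 and -0.66 to -0.30 in LPS-G0, whose part was not tested.

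The next comparison asked what the G1 diet changed in rats given LPS. A single member passed the test: Ccr1l1 fell in LPS-G1 against LPS-G0, where 8.93% of the 10313 probes had an adjusted p under 0.05, 8.39% being lower in LPS-G1. The count of 1 of 16 was thus near that background. At an unadjusted p under 0.05 there were 3 members, all lower in LPS-G1, namely Ccr1l1, Ccl20 and Cxcr5, and 26.9% of all probes, with 7.59% higher and 19.3% lower. The means of 8 members were higher and of 8 lower, where 55.4% of all probes were higher. The member median was 0.00 and that of all probes 0.06.

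In LPS-G1, Ccr1l1 had log2 ratios of -0.43, -0.76, -0.57 and -0.85, against the LPS-G0 values given above. No LPS-G1 rat reached the lowest LPS-G0 rat. The difference was -0.89 ± 0.18 (SE, n = 4 and 4), with a 95% interval from -1.28 to -0.50, an adjusted p of 0.0289 in limma and an exact permutation p of 0.0286. It was -0.60, -0.80 and -1.33 within the 3 slides. The call was lost, with the direction kept, without LPS-G0 replicates 1, 2 or 4 (adjusted p 0.0880, 0.0595 and 0.0810) or LPS-G1 replicates 2, 3 or 4 (0.0928, 0.0599 and 0.104). Without both LPS-G0 arrays of conflicting labels the difference was -0.82 with an adjusted p of 0.127, and over the 13 other settings the adjusted p ran from 0.000855 to 0.334.

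Ccl20, the attractant of cells bearing Ccr6, had log2 ratios of 0.48, 0.52, 0.28 and 0.51 in LPS-G0. In LPS-G1 they were 0.19, -0.29, -0.47 and -0.84. The groups did not overlap. The difference was -0.80 ± 0.24 (SE, n = 4 and 4), with an adjusted p that rounded to 0.05 and did not pass, and it was -0.31, -0.66 and -1.35 within the slides. Without LPS-G1 replicate 1 the adjusted p was 0.0190, and over the arrays left out in turn it ran from 0.0190 to 0.170. Without LPS-G0 replicates 3 and 4 the difference was -0.85, and with normexp and loess it was -0.54 and passed, with an adjusted p of 0.0365.

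Cxcr5, the receptor that takes B cells to follicles, had log2 ratios of 0.81, 0.62, 0.03 and 0.92 in LPS-G0. They were 0.42, -1.23, -0.18 and -0.44 in LPS-G1. One LPS-G1 rat lay inside the range of LPS-G0, and each group had 1 array that was not well above background. The difference was -0.95 ± 0.33 (SE, n = 4 and 4), with an adjusted p of 0.0779. Without LPS-G1 replicate 1 the adjusted p was 0.0249 and without LPS-G0 replicate 3 it was 0.0479, in a range from 0.0249 to 0.249. Without LPS-G0 replicates 3 and 4 the difference was -1.07, and with normexp and loess it was -0.32.

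**Figure D2:**
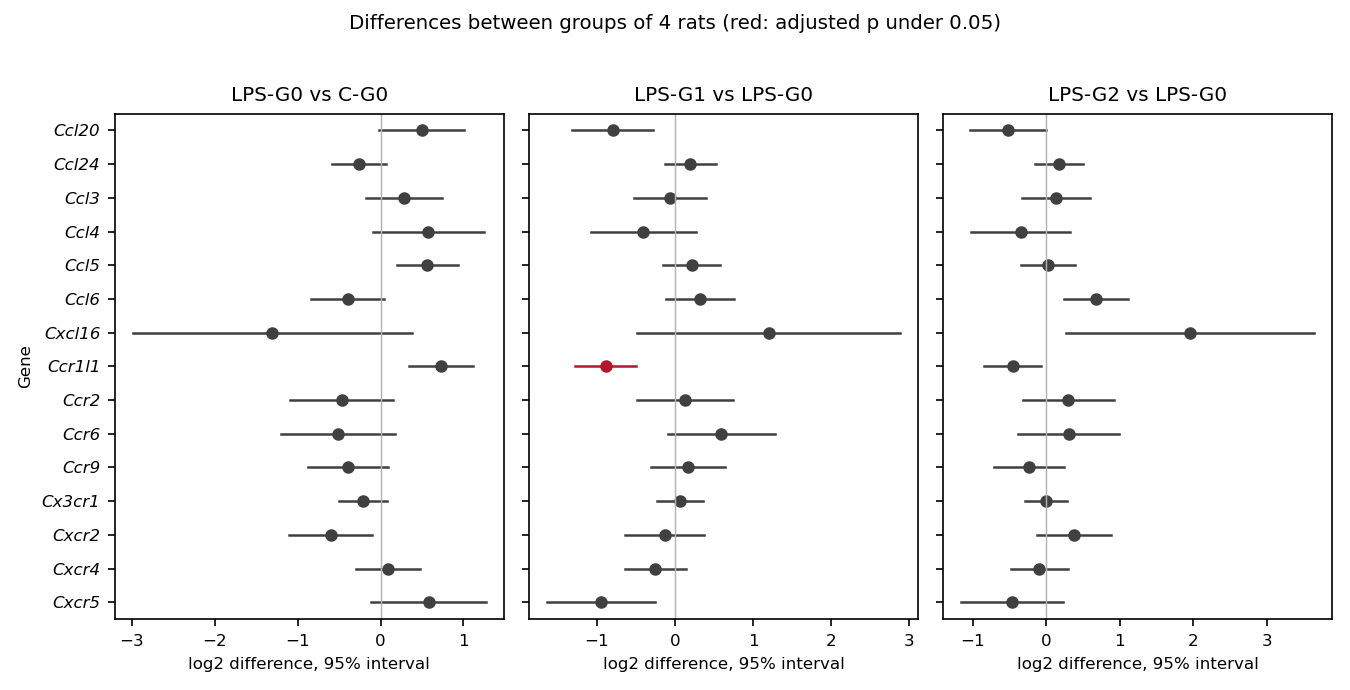
Difference in mean log2 ratio of the members described (vertical axis), for LPS on the plain diet (left), for the G1 diet with LPS (middle) and for the G2 diet with LPS (right), with the 95% interval from limma as a line (for Cxcl16 in the right panel it is no test). Red marks an adjusted p under 0.05, which only Ccr1l1 in LPS-G1 vs LPS-G0 reached, at -0.89.

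Markers of blood cells were also read in LPS-G1 against LPS-G0, where 55.4% of all probes had a higher mean. No list was tested as a whole. Of 8 erythroid markers tested, 6 had a lower mean in LPS-G1 and 2 fell, where 8.93% of all probes had an adjusted p under 0.05: Klf1, a transcription factor of red cell precursors, by 0.81 (adjusted p 0.0289) and Epb42, a membrane protein of red cells, by 0.93 (adjusted p 0.0408). Without both LPS-G0 arrays of conflicting labels Klf1 differed by -0.74 (adjusted p 0.134) and Epb42 by -0.84 (adjusted p 0.201). The mean of the erythroid markers ranged from 0.10 to 0.26 in LPS-G0 and from -0.60 to 0.03 in LPS-G1. No erythroid marker on the arrays was without an array above background. All 8 cytotoxic T and NK cell markers had a lower mean in LPS-G1, and 1 passed the test: Klrk1, an activating NK cell receptor, fell by 0.48 (adjusted p 0.0443, and 0.136 without the arrays of conflicting labels). All 6 neutrophil markers and 5 of the 6 B cell markers had a higher mean in LPS-G1, and 0 of either list passed the test. The part of these cells in the differences of Ccr1l1, Ccl20 and Cxcr5 was not tested.

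Groups that did not overlap in LPS-G1 against LPS-G0 were found for 3 members, Ccr1l1, Ccl20 and Ccr6, and for 21.9% of all probes. Ccr6, the receptor of Ccl20 on B cells and T cells, had log2 ratios of -0.54, -1.03, -0.33 and -0.37 in LPS-G0. In LPS-G1 they were -0.07, 0.56, -0.13 and -0.23. The direction was thus opposite to that of its ligand. The difference was 0.59 ± 0.33 (SE, n = 4 and 4), with an adjusted p of 0.249, and 0.81 without LPS-G0 replicates 3 and 4.

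Other genes of the chemokine system were read from fixed lists. Of 15 tested genes that act downstream of chemokine receptors, 1 fell and 0 rose in LPS-G1 against LPS-G0, where 8.93% of all probes passed. It was Pik3r5, a regulatory subunit of phosphoinositide 3-kinase gamma, which fell by 0.50 (adjusted p 0.0353). Of 4 tested chemokines and receptors whose names the rule did not match (Pf4, Ppbp, Ackr4 and Ccrl2), Ccrl2, a chemerin-binding atypical receptor, fell by 0.60 (adjusted p 0.0424). Without LPS-G0 replicates 3 and 4 these differed by -0.59 and -0.64, and neither passed (adjusted p 0.127 for Pik3r5 and 0.131 for Ccrl2). Neither of the 2 other chemoattractant receptors tested, C5ar1 and Ptafr, passed the test. Against C-G0, LPS-G0 had 0 genes of these lists past the test in limma, with 3 at an unadjusted p under 0.05, where 15.2% of all probes had one. LPS-G2 against LPS-G0 also had 0, with 3 at an unadjusted p under 0.05, against 8.23% of all probes.

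The comparison of LPS-G2 with LPS-G0 asked the same of the low molecular weight preparation. No member passed the test, and by limma 0% of the 10313 probes did. There were 4 members with an unadjusted p under 0.05, where 8.23% of all probes had one: Ccl6 and Cxcl16 higher and Ccr1l1 and Ccl20 lower in LPS-G2, against 2.62% of all probes higher and 5.61% lower. Cxcl16 is counted there although the filter kept it only for its LPS-G2 arrays. Over all probes, 47.4% were higher in LPS-G2, and 9 of 16 members were. Ccl6, Ccr1l1 and Ccl20 did not overlap between the groups, as did 10.5% of all probes. These comparisons share the LPS-G0 rats, so a like direction in LPS-G1 and LPS-G2 is not independent.

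Ccl6 had log2 ratios of -0.58, -0.38, -0.41 and -0.56 in LPS-G0. In LPS-G2 they were 0.31, -0.04, 0.80 and -0.27. The lowest LPS-G2 rat lay just above the highest LPS-G0 rat. The difference was 0.68 ± 0.21 (SE, n = 4 and 4), with an adjusted p of 0.597, and 0.68 without LPS-G0 replicates 3 and 4. A second Ccl6 probe, also well above background on 24 arrays, gave a smaller difference of 0.48. All 6 neutrophil markers tested had a higher mean in LPS-G2 as well, with an unadjusted p under 0.05 for 6 and 0 past the adjusted test, a mean of -0.16 to 0.62 in LPS-G2, and their part was not tested.

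Ccr1l1 had log2 ratios of -0.05, -0.36, -0.23 and -0.21 in LPS-G2, all below the LPS-G0 rats. The difference was -0.45 ± 0.18 (SE, n = 4 and 4), with an adjusted p of 0.597, and -0.38 without LPS-G0 replicates 3 and 4. The LPS-G1 rats lay lower still, and no LPS-G1 rat reached the lowest LPS-G2 rat. LPS-G1 and LPS-G2 differed by -0.44 ± 0.18 (SE, n = 4 and 4), with an adjusted p of 0.679. The order of the means in the LPS groups was thus LPS-G0, LPS-G2 and LPS-G1, with 1 of the 3 pairwise differences past the test. Ccl20 in LPS-G2 had log2 ratios of 0.10, -0.07, -0.27 and -0.05, a difference from LPS-G0 of -0.52 ± 0.24 (SE, n = 4 and 4), and of -0.57 without the same arrays.

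Cxcl16 had the widest spread of the members tested, with a median SD within groups of 1.31, against 0.14 for Cx3cr1, the narrowest. In LPS-G0 its log2 ratios were -2.60, 0.20, -1.69 and -3.02, with 1 of 4 arrays above background. In LPS-G2 they were -1.38, 0.76, 0.69 and 0.68, with 4 of 4 above background. The ranges overlapped through 1 low rat of LPS-G2 and 1 high rat of LPS-G0. Among these 16 arrays Cxcl16 passed the filter only through LPS-G2, the higher group, so its difference of 1.96 is a description with no test. It was -0.19, 2.45 and 3.71 within the slides. It was 1.38 without LPS-G0 replicates 3 and 4 and 0.85 with normexp and loess. Rats with a low value were not confined to a group: 8 of 24 arrays lay at or below -1.38 and the next lay at -0.80, and all 6 groups held at least 1 of the 8.

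**Figure D3:**
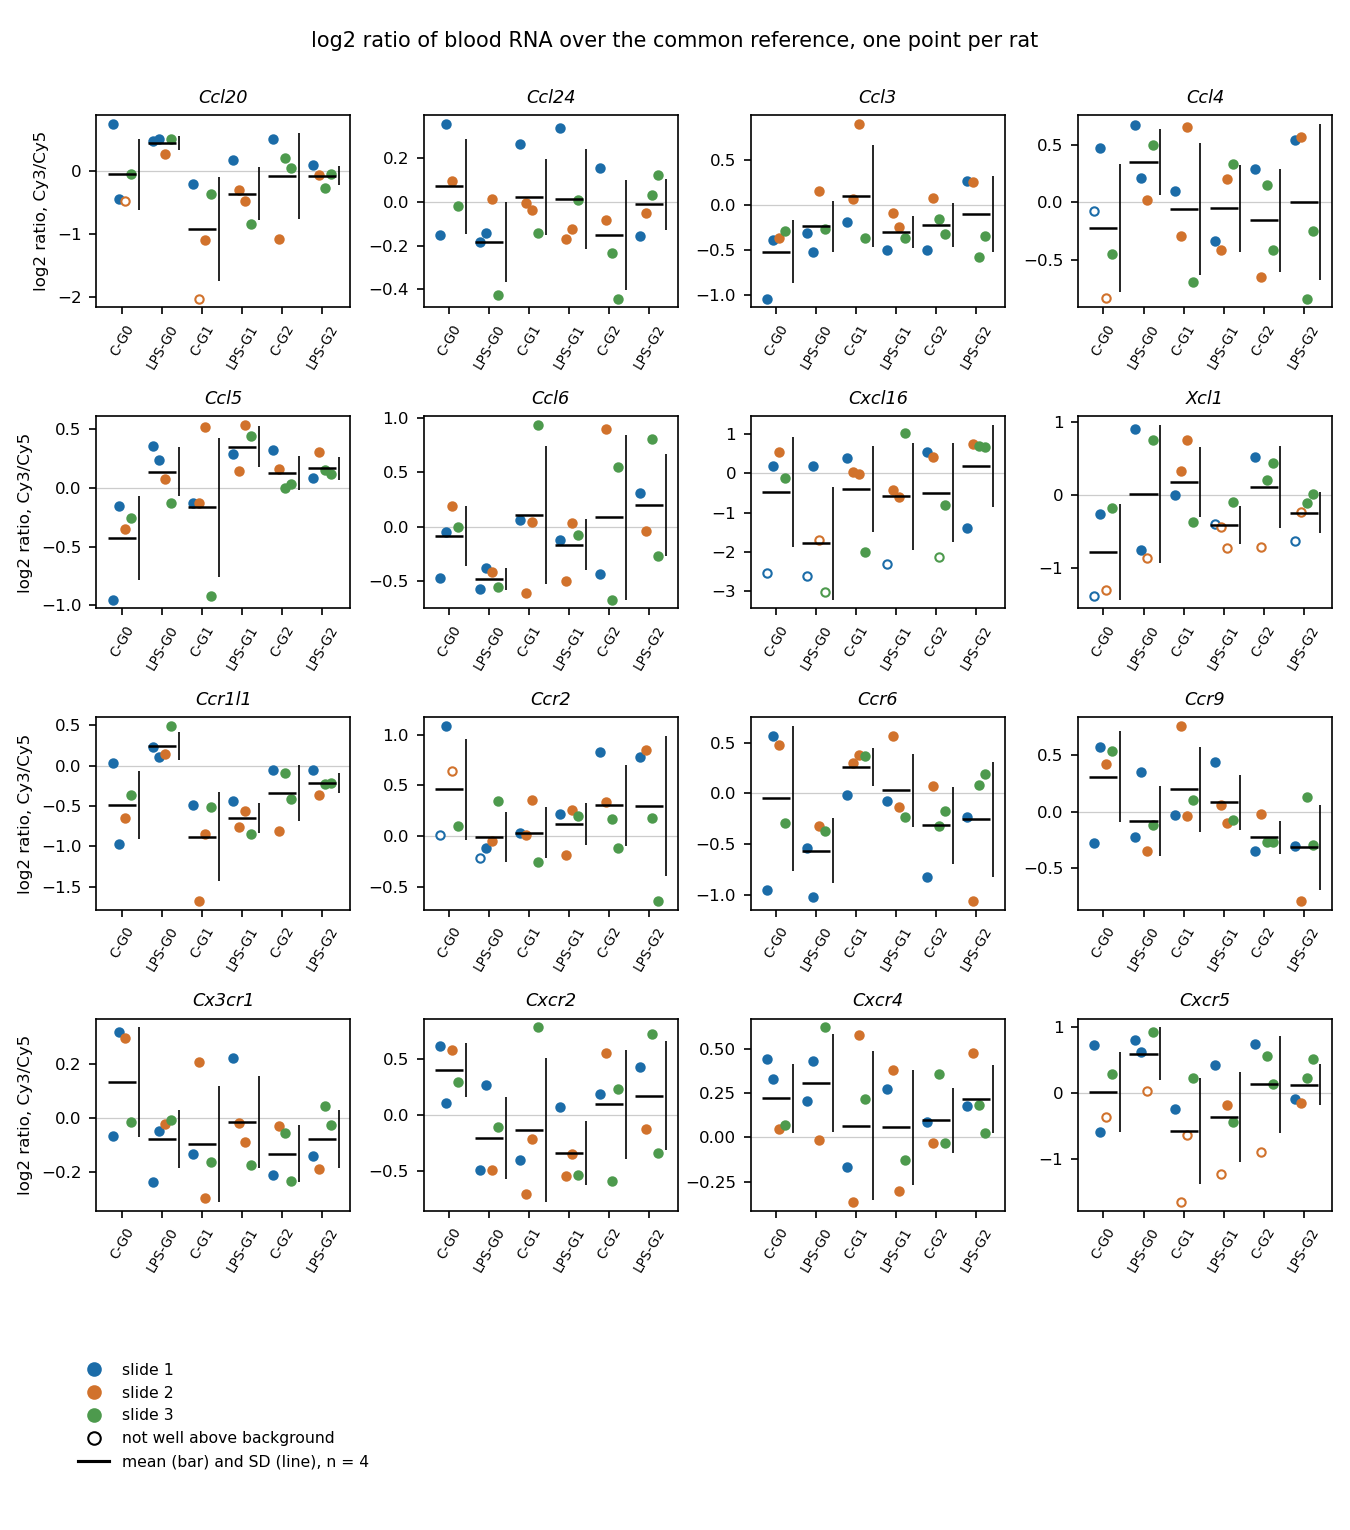
log2 ratio of Cy3 over Cy5 of each member described, 1 point per rat, in the 6 groups, with the mean as a bar and the SD as a vertical line (n = 4). Colour gives the slide and open points were not well above background. Every LPS-G0 point of Ccr1l1 lies between 0.11 and 0.49, and Cxcl16 spans -3.02 to 1.02.

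Between LPS-G1 and LPS-G2 no member passed the test, as did 0% of the 10313 probes by limma. At an unadjusted p under 0.05 there were 2 members, Ccr1l1 and Cxcr2, where 6.68% of all probes had one. Cxcr2 had log2 ratios of 0.07, -0.55, -0.35 and -0.53 in LPS-G1 and of 0.43, -0.12, 0.72 and -0.34 in LPS-G2. Those ranges overlapped. The difference was -0.51 ± 0.24 (SE, n = 4 and 4), with an adjusted p of 0.679. Without LPS-G2 replicate 3 it was -0.33, and in the Cy3 channel alone -0.30. For Ccl6 the difference was -0.37 ± 0.21 (SE), -0.16 without that array and -0.41 with the second Ccl6 probe. Ccr1l1 was the 1 member without overlap, against 6.65% of all probes.

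With all 24 arrays, the effect of LPS over the 3 diets was asked. No member of 17 passed the test, where 0.0187% of the 10708 probes did, and 2 had an unadjusted p under 0.05, against 9.61% of all probes. Ccl5 was higher with LPS by 0.37 ± 0.13 (SE, adjusted p 0.516), by 0.34, 0.24 and 0.54 within the slides. It had the smallest unadjusted p of the members. Ccr1l1 was higher by 0.36 ± 0.13 (SE), and Ccl20 by 0.35 ± 0.20 (SE, adjusted p 0.572), the latter by 0.10, 0.97 and -0.07 within the slides. Without C-G1 replicate 2 Ccl20 differed by 0.23, and with normexp and loess by 0.14. Without LPS-G0 replicates 3 and 4 the differences of Ccl5, Ccr1l1 and Ccl20 were 0.43, 0.34 and 0.37.

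The effect of LPS was then taken within each beta-glucan diet. In LPS-G1 vs C-G1, where 0.00934% of all probes passed the test, 0 members did, and 1 had an unadjusted p under 0.05, against 2.81% of all probes. It was Ccl5, with log2 ratios of -0.13, -0.13, 0.52 and -0.93 in C-G1 and of 0.29, 0.14, 0.54 and 0.44 in LPS-G1. Those groups overlapped, as did the groups of every other member tested, where 2.73% of all probes did not overlap. The difference was 0.52 ± 0.22 (SE, n = 4 and 4), with an adjusted p of 0.950. Without C-G1 replicate 4 it was 0.26. Ccl3, an inflammatory ligand, differed by -0.40 and Ccl20 by 0.56, both with an adjusted p of 0.950. Without C-G1 replicate 3 that of Ccl3 was -0.13, and without C-G1 replicate 2 that of Ccl20 was 0.20. With array weights they were -0.19 and 0.06, and with normexp and loess that of Ccl20 was 0.14. In LPS-G2 vs C-G2, 0 members and by limma 0% of all probes passed, with 0 members and 1.09% of all probes at an unadjusted p under 0.05. No member was without overlap, against 1.07% of all probes. The smallest p belonged to Xcl1 at -0.35, Ccl24 at 0.14 and Cxcl16 at 0.67, each with an adjusted p of 1.00. With normexp and loess Xcl1 was at -0.02, and in the Cy3 channel alone Ccl24 was at 0.08. These also moved by over 1.5 times with single arrays left out: Xcl1 to -0.22 without C-G2 replicate 1, -0.22 without LPS-G2 replicate 1 and -0.63 without C-G2 replicate 2, Ccl24 to 0.24 and 0.04 without C-G2 replicates 1 and 4, and Cxcl16 to 1.02 and 0.13 without C-G2 replicates 1 and 3 and to 1.2 without LPS-G2 replicate 1.

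Without LPS, the G1 diet was set against the plain diet. No member passed the test in C-G1 vs C-G0, where 0.028% of all probes did, and 3 had an unadjusted p under 0.05, against 27.9% of all probes. No member was without overlap, against 7.04% of all probes. Xcl1, a ligand made by activated T and NK cells, had log2 ratios of -1.40, -0.27, -1.31 and -0.18 in C-G0. In C-G1 they were 0.00, 0.33, 0.74 and -0.37. The groups overlapped, and 2 arrays of C-G0 were not well above background. Since Xcl1 passed the filter only through C-G1, the higher group, its difference of 0.96 is a description with no test, although it is among the 3. It was 0.76 without C-G0 replicate 1, 0.63 with array weights and 0.20 with normexp and loess.

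Ccl3 had log2 ratios of -1.03, -0.38, -0.36 and -0.29 in C-G0 and of -0.19, 0.06, 0.90 and -0.37 in C-G1. The difference was 0.62 ± 0.25 (SE, n = 4 and 4), with an adjusted p of 0.139. Without C-G1 replicate 3 it was 0.35, with array weights 0.32 and in the Cy3 channel alone 0.93. Ccl20 had log2 ratios of 0.75, -0.44, -0.47 and -0.04 in C-G0 and of -0.20, -2.02, -1.09 and -0.36 in C-G1. One C-G1 rat was far below all others. The difference was -0.87 ± 0.35 (SE, n = 4 and 4), with an adjusted p of 0.141. It was -0.50 without C-G1 replicate 2 and -0.60 without C-G0 replicate 1, -0.20 with array weights, -0.34 with normexp and loess and -1.31 in the Cy3 channel alone. Of the 8 erythroid markers, 7 had a lower mean in C-G1, with an unadjusted p under 0.05 for 4, 0 past the adjusted test and a median difference of -0.82, and their part was not tested.

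C-G2 vs C-G0 gave 0 members past the test, against 0.028% of all probes, and 3 with an unadjusted p under 0.05, against 13.3%. Ccl5 had log2 ratios of 0.32, 0.16, 0.00 and 0.04 in C-G2, all above the C-G0 rats. It was the 1 member without overlap, against 2.64% of all probes, and the difference was 0.56 ± 0.22 (SE, n = 4 and 4) with an adjusted p of 0.291. Without C-G0 replicate 1 it was 0.38. Of the 8 cytotoxic T and NK cell markers, 7 had a higher mean in C-G2 as well, with an unadjusted p under 0.05 for 4 of these. The 1 with a lower mean, at -0.64, also had an unadjusted p under 0.05. Past the adjusted test there were 0, the median difference over the list was 0.56, and the part of these markers was not tested. Ccr9 had log2 ratios of -0.28, 0.56, 0.41 and 0.53 in C-G0 and of -0.35, -0.02, -0.27 and -0.27 in C-G2. The difference was -0.53 ± 0.22 (SE, n = 4 and 4), with an adjusted p of 0.314, and -0.73 without C-G0 replicate 1. Xcl1 differed by 0.89 ± 0.38 (SE, adjusted p 0.319), and by 0.20 with normexp and loess.

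C-G1 and C-G2 differed in 0 members past the test, with 0% of all probes past it by limma, and 2 members had an unadjusted p under 0.05, against 15.4%. No member was without overlap, against 3.22% of all probes. Ccl20 was lower in C-G1 by 0.84 on the log2 scale, by 0.48 without C-G1 replicate 2, by 0.50 with array weights and by 0.37 with normexp and loess. Ccr1l1 had log2 ratios of -0.48, -1.68, -0.84 and -0.52 in C-G1 and of -0.05, -0.81, -0.09 and -0.41 in C-G2. The difference was -0.54 ± 0.23 (SE, n = 4 and 4), with an adjusted p of 0.323, -0.28 without C-G1 replicate 2 and -0.31 with array weights. Of the 8 erythroid markers, 7 had a lower mean in C-G1 here too, with an unadjusted p under 0.05 for 3. Ccr6 differed by 0.57 ± 0.30 (SE).

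Whether LPS acted differently on the beta-glucan diets was tested as an interaction. No member passed for either diet, and by limma 0% of the 10708 probes did, with 1 member at an unadjusted p under 0.05 in each, against 3.01% of all probes for G1 and 5.57% for G2. The member was Xcl1 both times. Its LPS difference on G1 minus that on G0 was -1.39, a description with no test because the filter kept Xcl1 for its C-G1 arrays alone. On G2 minus G0 it was -1.15 ± 0.54 (SE, adjusted p 0.832). With normexp and loess these were -0.45 and -0.30. Xcl1 was not well above background on 9 of 24 arrays, and its 3 lowest values are among those. Ccr1l1 gave -0.50 ± 0.33 (SE) for G1 and -0.60 ± 0.33 (SE) for G2. Ccl3 gave -0.68 for G1 and Ccl24 gave 0.39 for G2. With array weights Ccr1l1 gave -0.96 and Ccl3 -0.31 for G1, and in the Cy3 channel alone Ccr1l1 gave -0.27. Without LPS-G0 replicates 3 and 4 Xcl1 gave -1.45 and -1.21 for G1 and G2, Ccr1l1 gave -0.43 and -0.53, Ccl3 gave -0.50 for G1 and Ccl24 gave 0.37 for G2. Without C-G1 replicate 2 Ccr1l1 gave -0.77 for G1, and without C-G1 replicate 3 Ccl3 gave -0.41. Both tests share the same C-G0 and LPS-G0 rats.

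Further members are given by their ranges. Over 24 arrays Ccl4 ranged from -0.84 to 0.67 and Ccr2 from -0.64 to 1.08. Cxcr4 ranged from -0.36 to 0.62, Cx3cr1 from -0.30 to 0.32 and Ccl24 from -0.44 to 0.36.

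Beyond the group means, the members differed between rats of the same group, and these deviations were followed over the 24 arrays. Each of the 17 members was correlated with the other members, with the mean of 7 lists of blood cell markers and with the number of probes above background, after the group means were removed. This gave 272 relations, each with a permutation test of 100000 shuffles within groups, adjusted together. By Pearson's r, 5 of the 136 member pairs and 7 of the 119 relations with a list had an adjusted p under 0.05, and none of the 17 relations with the number of probes did. Member and list were read from the same array and against the same pool.

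Ccl6 followed the neutrophil markers most closely. Pearson's r was 0.95 and Spearman's rho 0.94 over 24 arrays, each with a permutation p of 1e-05, the smallest the shuffles can give, and adjusted p of 0.00136 and 0.00272. Leaving out the 2 arrays farthest from the median gave r = 0.92. For this and the like values below, the group means still included the arrays left out. Within slides 1, 2 and 3 r was 0.69, 0.97 and 0.98. Of all probes tested, 0.00937% reached this r with the neutrophil list.

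Cxcr2 followed the same list, with r = 0.87 (permutation p 2e-05, adjusted 0.00136) and rho = 0.84 (permutation p 3e-05, adjusted 0.00272) over 24 arrays. The value of r was 0.83 without the 2 farthest arrays, 0.73, 0.94 and 0.96 within the slides, and 0.60 in the Cy3 channel alone. Ccl6 and Cxcr2 were also related to each other, with r = 0.76 (permutation p 0.00055, adjusted 0.0178) and rho = 0.71 (permutation p 0.00193, adjusted 0.0525). This pair held on slides 2 and 3, with r = 0.94 each, and not on slide 1, with r = 0.10.

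Ccr6 followed the B cell markers. Over 24 arrays r was 0.83 (permutation p 0.00022, adjusted 0.0120) and rho 0.76 (permutation p 0.00124, adjusted 0.0396), with r = 0.75 without the 2 farthest arrays and 0.90, 0.91 and 0.59 within the slides. Cx3cr1 was related to the same list less closely, with r = 0.66 (permutation p 0.00095, adjusted 0.0258) and rho = 0.71 (permutation p 0.00131, adjusted 0.0396). For Cx3cr1 r was 0.62 without the 2 farthest arrays, 0.74, 0.60 and 0.66 within the slides, and 0.23 in the Cy3 channel alone. The share of all probes as closely related to the B cell list was 0.15% for Ccr6 and 3.71% for Cx3cr1. Cx3cr1 also varied with Ccr9, with r = 0.73 (permutation p 0.0005, adjusted 0.0178) and rho = 0.71 (permutation p 0.0003, adjusted 0.0163), 0.61 without the 2 farthest arrays and 0.82, 0.86 and 0.38 within the slides.

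Ccl5 followed the cytotoxic T and NK cell markers, with r = 0.79 (permutation p 0.00109, adjusted 0.0270) and rho = 0.68 (permutation p 0.00254, adjusted 0.0576) over 24 arrays. It was 0.64 without C-G0 replicate 1 and C-G1 replicate 4, the farthest arrays. Within the slides r was 0.93, 0.89 and 0.69. Of all probes, 0.122% were as closely related to this list.

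**Figure D4:**
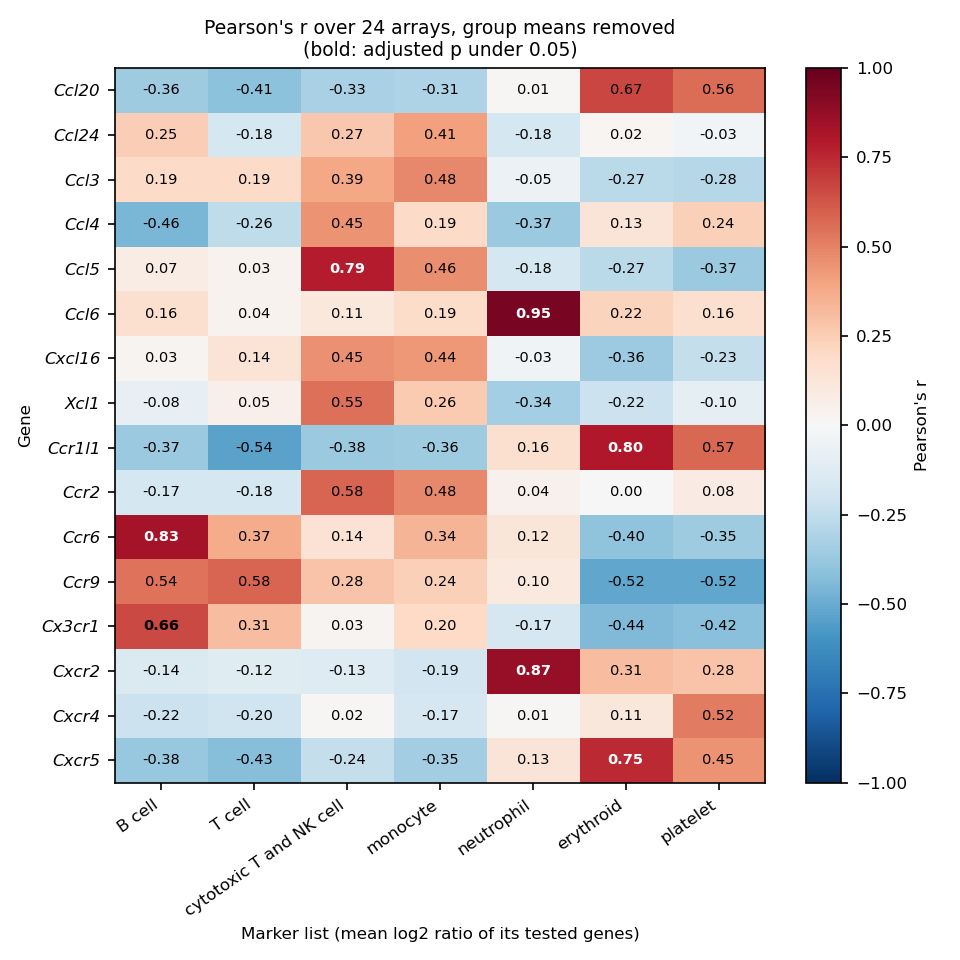
Pearson's r of each member described (rows) with the mean log2 ratio of 7 marker lists (columns) over 24 arrays after the group means were removed. Bold marks an adjusted permutation p under 0.05, which 7 relations had, from 0.66 for Cx3cr1 with B cells to 0.95 for Ccl6 with neutrophils.

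Ccr1l1, Ccl20 and Cxcr5, the 3 members with an unadjusted p under 0.05 in LPS-G1 against LPS-G0, also varied together within groups. Ccl20 with Ccr1l1 had r = 0.91 (permutation p 2e-05, adjusted 0.00136) and rho = 0.84 (permutation p 9e-05, adjusted 0.00612), with 0.86 without the 2 farthest arrays and 0.97, 0.88 and 0.84 within the slides. Ccr1l1 with Cxcr5 had r = 0.86 (permutation p 2e-05, adjusted 0.00136) and rho = 0.86 (permutation p 3e-05, adjusted 0.00272), with 0.79 without the 2 farthest arrays and 0.81, 0.81 and 0.89 within the slides. Ccl20 with Cxcr5 had r = 0.82 (permutation p 0.00046, adjusted 0.0178) and rho = 0.76 (permutation p 0.00071, adjusted 0.0322), with 0.70 without the 2 farthest arrays and 0.87, 0.64 and 0.85 within the slides. In the Cy3 channel alone r was 0.92, 0.85 and 0.76 for these pairs, in the same order. The share of all probes that varied as closely with these genes is not given. A link between the 3 genes and a pattern common to many probes therefore cannot be told apart.

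Of these genes, Ccr1l1 and Cxcr5 were also related to the erythroid list, and Ccl20 did not pass, with r = 0.67 (permutation p 0.0153, adjusted 0.185) and rho = 0.56 (permutation p 0.0256, adjusted 0.264). Ccr1l1 had r = 0.80 (permutation p 0.00059, adjusted 0.0178) and rho = 0.70 (permutation p 0.00125, adjusted 0.0396), with 0.74 without the 2 farthest arrays and 0.91, 0.74 and 0.68 within the slides. Cxcr5 had r = 0.75 (permutation p 0.00129, adjusted 0.0292) and rho = 0.67 (permutation p 0.00368, adjusted 0.0715), with 0.61 without the 2 farthest arrays and 0.70, 0.79 and 0.75 within the slides. Without C-G1 replicate 2 and with the group means taken anew, r was 0.64 for Ccr1l1, 0.66 for Cxcr5 and 0.46 for Ccl20. In the Cy3 channel alone r was 0.46 for Ccr1l1 and 0.28 for Cxcr5, and with normexp and loess it was 0.77 and 0.36. Of all probes, 1.68% were as closely related to the list as Ccr1l1, 4.24% as Cxcr5 and 10.3% as Ccl20.

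**Figure D5:**
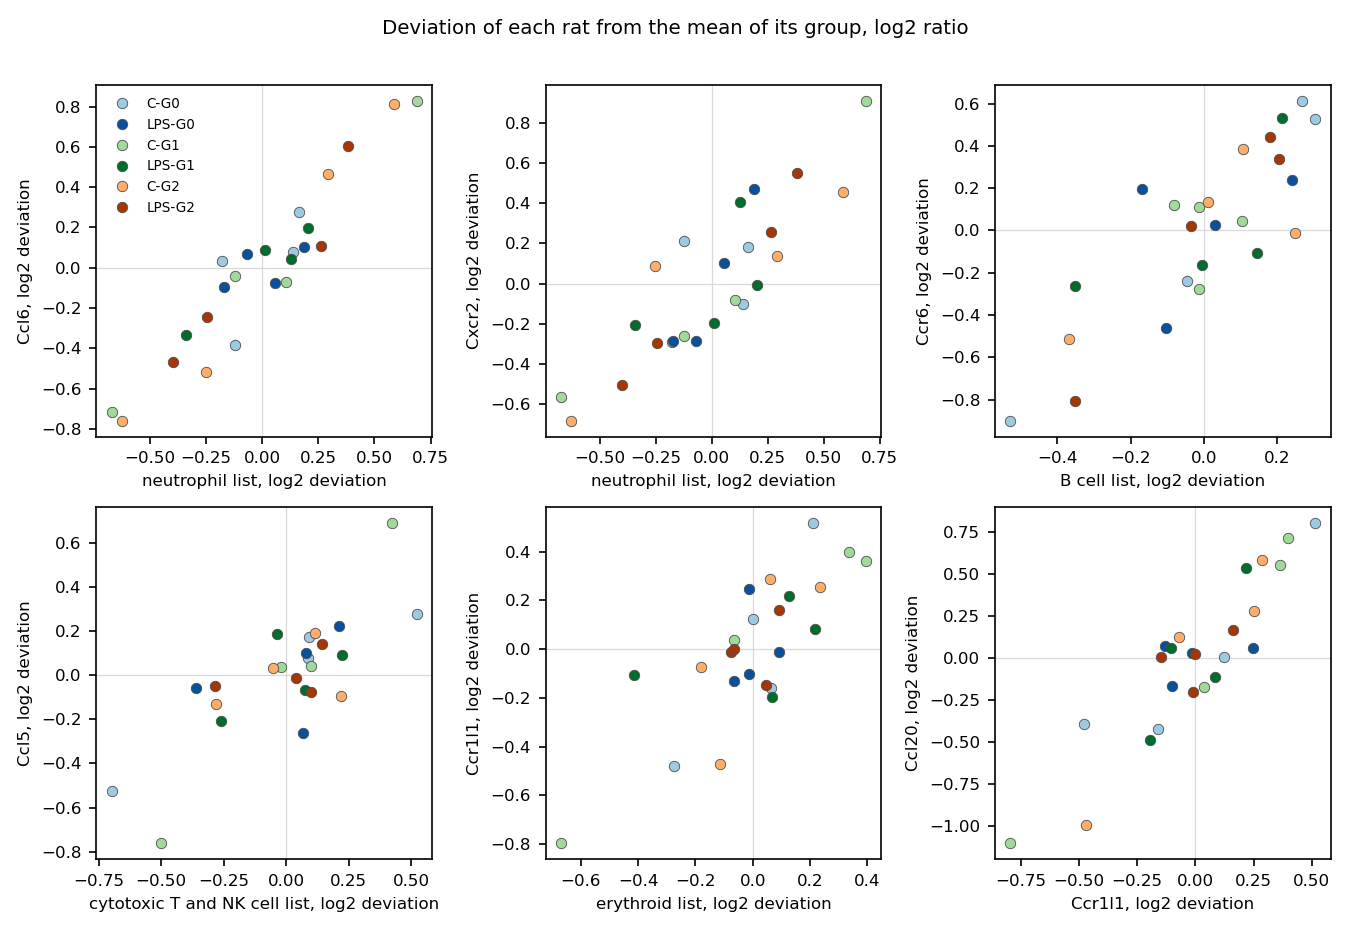
Deviation of each of 24 rats from its group mean (log2 ratio) for Ccl6 and Cxcr2 against the neutrophil list, Ccr6 against the B cell list, Ccl5 against the cytotoxic T and NK cell list, Ccr1l1 against the erythroid list and Ccl20 against Ccr1l1. Colours give the groups, and r is 0.95, 0.87, 0.83, 0.79, 0.80 and 0.91.

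Because Ccl20 and Ccr1l1 moved together, the 250 bases before their RefSeq starts are shown, from the GRCr8 build. RefSeq stretches were at hand for 11 of the 17 members tested. Letters searched on both strands were GGG and CC with 5 bases of any kind between them, the outline of sites for NF-kB, a factor that LPS activates, and GATAA, which overlaps the sites of GATA factors. Capitals mark the NF-kB outline.
Ccl20, chr9:91836909-91837158, plus strand: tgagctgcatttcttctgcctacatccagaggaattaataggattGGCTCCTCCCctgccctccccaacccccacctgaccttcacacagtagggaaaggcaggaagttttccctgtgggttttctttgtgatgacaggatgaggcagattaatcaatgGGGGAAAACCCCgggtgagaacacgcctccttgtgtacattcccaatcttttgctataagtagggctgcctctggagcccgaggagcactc
Ccr1l1, chr8:132469523-132469772, minus strand: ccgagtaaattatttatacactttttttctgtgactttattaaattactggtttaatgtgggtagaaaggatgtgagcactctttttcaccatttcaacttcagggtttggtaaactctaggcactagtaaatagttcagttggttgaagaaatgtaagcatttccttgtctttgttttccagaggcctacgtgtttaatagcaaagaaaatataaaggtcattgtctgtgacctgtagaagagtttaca
Ccl20 held the NF-kB outline 5 times over both strands, 1 of them at bases 205 to 196 and 4 of them, overlapping each other, within bases 91 to 80 before the start, and Ccr1l1 held none. GATAA was in neither. Over all 33469 RefSeq stretches of this length, 42.3% held the NF-kB outline and 23.5% held GATAA, and of the 11 members 4 held each. These matches are descriptions of letters and not of bound factors.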

How the data were processed

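The authors hybridised blood RNA on Agilent two-colour rat arrays and read them with Feature Extraction, version 10.10.1.1 per the file headers and 10.7.3.1 per the labels. The deposited processed intensity of each channel is background-subtracted and Lowess-balanced within each array. The deposited log10 ratio is Cy5 over Cy3, and a deposited series table of 1511424 log10 values was equal to it throughout. The flags for background and outlier spots (1 or 0, another deposited column) were used as given. Filtering by absent flags, which the methods describe, is not part of the deposited values.

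The sign of the log10 ratio was turned and converted to log2. By the labels the rat RNA carried Cy3, by the methods Cy5. Over 7074 probes the median SD between arrays was 0.353 in Cy3 and 0.195 in Cy5, larger in Cy3 for 96.7%, so Cy3 was taken as the rat RNA. The pool holds all rats per the labels, and rats that were not hybridised per the methods. Outlier spots (679 to 1133 per array) were dropped, and spots of 1 probe were averaged. A probe was above background where at least a fraction of 0.5 of its spots were.

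Groups came from the sample titles. limma 3.58.1 in R 4.3.3 was fitted to 16 arrays (10313 probes; comparisons among C-G0 and the LPS groups, the arrays of the study's own analysis) or all 24 (10708 probes), with Benjamini-Hochberg adjustment over all probes and a threshold of 0.05. Single members were tested by exact permutation over 70 arrangements. On simulated data for LPS-G1 vs LPS-G0 with 10313 probes, 69% of 2-fold and 96% of 4-fold changes were recovered, with 10 false calls. The simulated noise was independent between probes and 200 probes were changed, so these shares need not hold for the real arrays. In each comparison the members called, or the 3 with the smallest p, are described in full. The members, marker lists and tests were chosen with earlier results of these data known, and the correlations, their 4 alternatives, the within-slide differences and some values without the arrays of conflicting labels were added after seeing the data. The number of arrays limits the precision. Where a member was dim in a whole group, a bound was set from the lowest Cy3 signal well above background. For this, the mean log intensity of both channels was first given the same distribution on every array, with the ratios kept. For the Cy3 channel alone, each array was scaled by its 75th percentile. The values of 1 tested member are not reported here, though counts over the members include it.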

Additional observations from a re-analysis of the deposited data

Results flagged for a closer look

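In 4 of 102 groups of 4 arrays, 1 rat lay far from the others of its group, where chance gives about 1 in 20. Ccl3 in C-G0 replicate 1 was -1.03 on the log2 scale, and the other C-G0 rats were between -0.38 and -0.29. Ccr2 in LPS-G1 replicate 2 was -0.19, where the others lay between 0.20 and 0.25. Cxcl16 in C-G1 replicate 4 was -2.01, with the others between -0.01 and 0.39. Cxcl16 in LPS-G2 replicate 1 was -1.38, with the others between 0.68 and 0.76.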

How the results depend on the processing

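Under 13 other settings (11 where all 24 arrays were fitted) and with each array left out, no member described in full in a comparison (the members called, or the 3 of smallest p) changed direction there. The other members were not run under these settings, beyond the removal of the LPS-G0 arrays of conflicting labels. Members called in LPS-G1 vs LPS-G0 numbered 1. The count was 2 with normexp and loess, with a variance trend and with the mean of all probes of a gene, and 3 with array weights. It was 0 with the Cy3 channel alone, without the filter on dim probes, with the filter on Cy5, with all 24 arrays in the fit, without both LPS-G0 arrays of conflicting labels and by analysis of variance with Tukey's test. Leaving out 1 array gave 0 to 3. In LPS-G0 vs C-G0 the count was 0, with 3 under array weights and 0 to 2 with 1 array left out, 2 without C-G0 replicate 1. There all probes called ranged from 0 to 1106 over the settings and from 0 to 1140 with 1 array left out, against 1. All probes called in LPS-G1 vs LPS-G0 ranged from 0 to 2851 over the settings and from 0 to 1264 with 1 array left out, against 921. With fewer or other arrays or probes the estimate of spread and the adjustment change by construction; for the other settings the cause was not tested. In the other 10 comparisons 0 members were called under any alternative run.

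Replicate numbers did not pair the rats: deviations from the group means correlated at 0.11 on average for arrays sharing a number, at -0.04 for other arrays, and at -0.31 for the lowest pair. Arrays of the same slide also correlated at 0.11, and other arrays at -0.05, and the number partly coincides with the slide: every array numbered 1 lay on slide 1 and every array numbered 4 on slide 3. With the replicate number as a block, 3 members (Ccr1l1, Ccl20 and Cxcr5) were called in LPS-G1 vs LPS-G0, and 0 members in the other comparisons.

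Of the 12 correlations past the adjusted threshold, all kept their sign; in the Cy3 channel alone 4 moved by 0.2 or more, in the normexp and loess values 1, and without C-G1 replicate 2 or the LPS-G0 arrays of conflicting labels 0. Weak signals limit Cxcl16, Xcl1 and Cxcr5, which were above background on 18, 15 and 18 arrays.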
